A study of Mus musculus with 2 samples.

Results

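The choroid plexus is the tissue inside the brain ventricles whose epithelium makes most of the cerebrospinal fluid. The transcripts of 40 genes known from that epithelium were read out in hippocampal RNA of 1 tamoxifen-treated *Cdh5-CreERT2;CDK5f/f* mouse sample (the mutant library) and 1 untreated *CDK5f/f* mouse sample (the control library), both C57BL/6. Both carry the floxed *Cdk5* allele, and the *Cdh5* promoter drives the inducible Cre in endothelial cells, so that tamoxifen removes *Cdk5* there. The labels give neither the age nor the number of mice per sample, and tamoxifen was given to the mutant alone, so that treatment and genotype cannot be told apart. The genes were found by symbol, 40 of 55573 gene rows in the table, and none of the 40 symbols stood on more than 1 row. They were chosen by their cell type together with their mutant-to-control ratios in these same libraries, so every difference below is a description and none has a test. With 1 library per genotype there is also no replicate error, and the intervals given cover counting error only.

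The epithelial cells of the choroid plexus sit on leaky capillaries and are sealed to each other by tight junctions. They move sodium, chloride, bicarbonate and water from blood to ventricle, carry vitamins and hormones across, and secrete carrier proteins and growth factors into the fluid. The choroid plexus of the lateral ventricle lies against the hippocampus. In RNA of whole tissue, more cells of a type and more RNA per cell cannot be told apart.

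The libraries hold 18900847 counts (mutant) and 19451827 counts (control). *Cdk5* had 1257 counts in the mutant library and 1261 in the control library (ratio 1.03, interval 0.948 to 1.11), which in whole tissue does not check its loss in endothelial cells. The libraries also differed in sex-linked transcripts, with 34 counts of *Xist* and 771 of the Y-linked *Ddx3y* in the mutant library, against 15070 and 0 in the control library, so that sex and genotype cannot be told apart for any value given here. Mitochondrial transcripts were 3.10% of counts in the mutant library and 3.43% in the control library.

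All 40 genes were higher in the mutant library. Their exact 95% counting intervals all lay above 1, and the ratio of counts per library total ran from 1.37 for *Bmp6* to 31.9 for *Tmem72*, with a median of 6.91. FPKM scales a gene's read count by its exonic length and by the total of the library, so that levels can be compared between genes. The median FPKM of the 40 genes was 6.54 in the mutant library and 0.755 in the control library. On the scale of log2(FPKM + 1), where the ratio of a weak gene is pulled towards 1, 38 of 40 were past 1.5-fold higher and none was lower. Among all 14769 genes that reached an FPKM of 1 in either library, 3.65% were past 1.5-fold higher and 3.17% past 1.5-fold lower. The median log2 ratio was 1.86 for the 40 genes, against 0.002 for all genes. Since these ratios helped to choose the genes, nothing is read from the contrast. All 40 passed the FPKM minimum through the mutant library, and 17 would have passed it through the control library alone. *Car12*, with a log2 ratio of 0.58, stood just short of 1.5-fold and *Bmp6*, at 0.37, further below it, while *Wfikkn2* and *Msx1*, both at 0.64, were just past it.

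**Figure D1:**
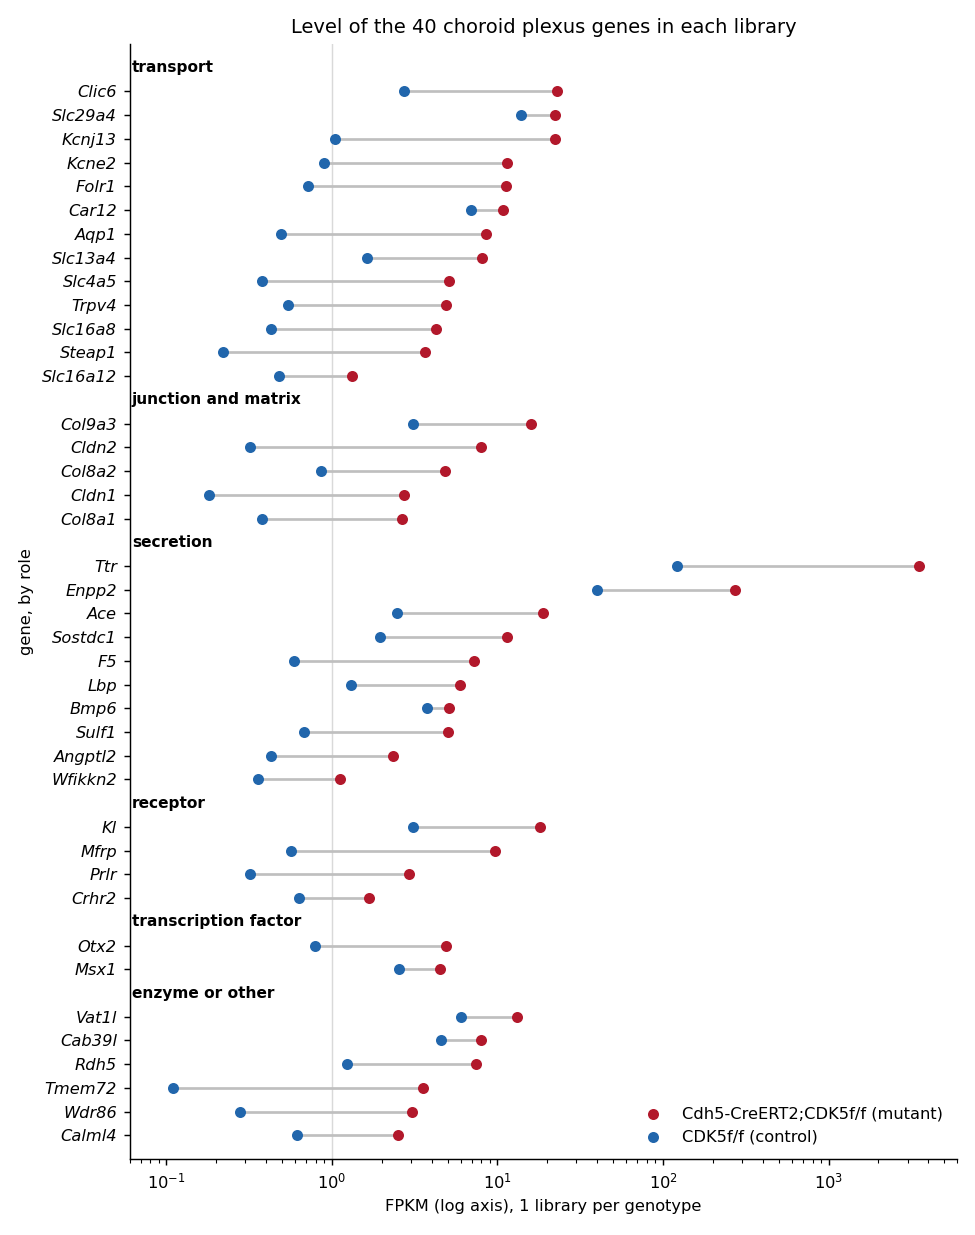
FPKM of the 40 choroid plexus genes in the mutant library (red) and the control library (blue) on a log axis, grouped by role, 1 library per genotype. Every red point lies to the right of its blue point, and the widest spans belong to *Tmem72*, *Ttr*, *Cldn2* and *Kcnj13*.

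A single gene held most of the mutant library's reads of these 40 genes. *Ttr*, which encodes transthyretin, the carrier of thyroxine and of retinol-binding protein in the cerebrospinal fluid, made up 0.416% of all counts in the mutant library (Wilson 95% interval 0.413% to 0.418%), against 0.0144% in the control library (interval 0.0139% to 0.0149%). It ranked 3 by FPKM among all genes in the mutant library and 221 in the control library. The 40 genes together took 0.714% of the counts in the mutant library and 0.0697% in the control library, and *Ttr* was 58.2% of that share in the mutant library and 20.6% in the control library. Without *Ttr* the summed FPKM of the other 39 genes was 580.1 in the mutant library and 107 in the control library, a ratio of 5.40.

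*Ttr* and *Enpp2*, both of secreted proteins, had the highest levels of the 40. *Ttr* had 78546 counts in the mutant library and 2797 in the control library (ratio 28.9, interval 27.8 to 30.0), an FPKM of 3504 and 121. *Enpp2*, the gene of autotaxin, an enzyme that makes lysophosphatidic acid outside the cell, had 29815 counts in the mutant library, against 4489 in the control library, an FPKM of 273 and 39.9 and a count ratio of 6.84, interval 6.62 to 7.05. Oligodendrocytes also express *Enpp2*. Both genes were far above the other 38, whose FPKM lay between 1.12 and 22.9 in the mutant library and between 0.11 and 13.8 in the control library. *Ace*, which encodes the enzyme that converts angiotensin I to angiotensin II, had 1882 counts in the mutant library and 256 in the control library (ratio 7.57, interval 6.64 to 8.66). *F5*, coagulation factor V, had 1010 and 85 counts, mutant and control, a ratio of 12.2, although its FPKM reached no more than 7.19 in the mutant library. Extracellular regulators of growth factors were also higher. *Sostdc1*, a secreted antagonist of BMP and Wnt ligands, had an FPKM of 11.4 and 1.96, mutant and control (ratio 5.80, interval 4.47 to 7.62). *Sulf1*, which removes sulfate groups from heparan sulfate, stood at 5.02 and 0.68, mutant and control (ratio 7.36, interval 6.19 to 8.78). *Lbp*, the lipopolysaccharide-binding protein, had 539 counts in the mutant library and 123 in the control library (ratio 4.51). *Angptl2*, an angiopoietin-like protein, had 277 counts in the mutant library and 52 in the control library (ratio 5.48). *Wfikkn2*, a secreted protein with protease inhibitor domains, was scarce, with 81 counts in the mutant library and 27 in the control library (ratio 3.09, interval 1.98 to 4.97). The growth factor gene *Bmp6* had the lowest ratio of the 40, with 376 counts in the mutant library and 283 in the control library (ratio 1.37, interval 1.17 to 1.60).

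Among the channels and transporters, 13 in all, 12 were past 1.5-fold higher and the median log2 ratio was 1.94. *Kcnj13*, an inwardly rectifying potassium channel of the apical membrane, had 532 counts in the mutant library, against 26 in the control library, an FPKM of 22.2 and 1.05 (ratio 21.1, interval 14.2 to 32.5). *Kcne2*, a small subunit that attaches to potassium channels, had 382 counts in the mutant library and 31 in the control library (ratio 12.7, interval 8.79 to 18.9). *Trpv4*, a cation channel that responds to osmotic swelling, had 377 counts in the mutant library and 43 in the control library (ratio 9.02, interval 6.57 to 12.7). These channel genes differed by more than the counting error in the same direction, as did *Clic6*, of the chloride intracellular channel family, with an FPKM of 22.9 in the mutant library and 2.73 in the control library (ratio 8.37, interval 7.24 to 9.71). Water and bicarbonate are moved by the next group. *Aqp1*, the water channel, had 423 counts in the mutant library and 25 in the control library (ratio 17.4, interval 11.6 to 27.2), and *Slc4a5*, a sodium bicarbonate cotransporter, had 563 and 43, mutant and control (ratio 13.5, interval 9.87 to 18.8). *Car12*, a membrane-bound carbonic anhydrase that supplies bicarbonate, had 1546 counts in the mutant library and already 1019 in the control library (ratio 1.56, interval 1.44 to 1.69).
Carriers of nutrients and metabolites had ratios between 1.62 and 16.3. *Folr1*, the folate receptor that brings folate into the cerebrospinal fluid, had 490 counts in the mutant library and 32 in the control library (ratio 15.8, interval 11.0 to 23.3). *Slc13a4*, a sodium-dependent sulfate transporter, had 694 counts in the mutant library and 144 in the control library (ratio 4.96, interval 4.14 to 5.98). The lactate transporter *Slc16a8*, best known from the retinal pigment epithelium, had 182 and 19 counts, mutant and control (ratio 9.86, interval 6.13 to 16.8), and its relative *Slc16a12*, a creatine transporter, 105 and 39 (ratio 2.77, interval 1.9 to 4.11), so that the intervals of these relatives did not overlap. *Slc29a4*, a monoamine transporter that neurons also express, had an FPKM of 22.4 in the mutant library and 13.8 in the control library, the highest control level after *Ttr* and *Enpp2* (ratio 1.62, interval 1.48 to 1.78). *Steap1*, of a family of metalloreductases, had 95 counts in the mutant library and only 6 in the control library, and its interval, 7.22 to 45.5 around 16.3, was the widest of the 40.

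Of the 5 junction and matrix genes, all but *Col9a3* had an FPKM under 1 in the control library. *Cldn2*, the claudin that forms a paracellular pore for cations and water in leaky epithelia, had 503 counts in the mutant library and 21 in the control library, an FPKM of 8.0 and 0.32 (ratio 24.7, interval 16.0 to 40.2). *Cldn1*, a claudin that seals the junction, had 251 and 17 counts, mutant and control (ratio 15.2, interval 9.30 to 26.5). The intervals of these claudins overlapped. *Cldn5*, the claudin of brain endothelium and no member of the 40, had 482 counts in the mutant library and 701 in the control library, a ratio of 0.708. The chains of type VIII collagen, *Col8a1* with 394 counts in the mutant library and 58 in the control library and *Col8a2* with 409 and 75, had ratios of 6.99 (interval 5.30 to 9.38) and 5.61 (interval 4.38 to 7.28). *Col9a3*, a chain of type IX collagen, reached an FPKM of 16.0 in the mutant library, against 3.11 in the control library (ratio 5.15, interval 4.47 to 5.96).

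Of the 4 receptors, *Kl* had the highest level. It encodes klotho, the co-receptor of the hormone FGF23, and had 3180 counts in the mutant library and 561 in the control library, an FPKM of 18.04 and 3.09 (ratio 5.83, interval 5.33 to 6.39). *Mfrp*, a membrane protein with a frizzled-like domain that is needed in the retinal pigment epithelium, had 790 counts in the mutant library and 48 in the control library (ratio 16.9, interval 12.7 to 23.2). *Prlr*, the prolactin receptor, had 851 and 96 counts, mutant and control (ratio 9.12, interval 7.38 to 11.4). The ligand gene *Prl*, which is made in the pituitary, stood the other way, with 0 counts in the mutant library, which allows up to 3 counts, and 236 counts in the control library. *Crhr2*, a receptor of the urocortins, had 161 counts in the mutant library and 63 in the control library (ratio 2.63, interval 1.95 to 3.58), at an FPKM of 1.67 and 0.63.

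Both transcription factors were higher, by unequal ratios. *Otx2*, a homeodomain factor that the choroid plexus needs to form and that its epithelium also secretes, had 390 counts in the mutant library, against 65 in the control library (ratio 6.17, interval 4.74 to 8.16). *Msx1*, a homeodomain factor downstream of BMP signals, had 265 and 153 counts, mutant and control (ratio 1.78, interval 1.46 to 2.19), and the intervals of both genes did not overlap. The remaining members have less defined roles in this tissue. *Tmem72*, a transmembrane protein, had the highest ratio of the 40, 31.9, interval 23.0 to 45.5, with 1146 counts in the mutant library and 37 in the control library over an exonic length of 17177 bases, so its FPKM was only 3.53 and 0.11. *Wdr86*, a protein with WD repeats, had 290 counts in the mutant library and 27 in the control library (ratio 11.1, interval 7.44 to 17.1). *Rdh5*, a retinol dehydrogenase of the visual cycle, had 392 counts in the mutant library and 68 in the control library (ratio 5.93, interval 4.58 to 7.79). *Calml4*, a calmodulin-like protein, followed with 173 and 44 counts, mutant and control (ratio 4.05, interval 2.89 to 5.77). Ratios near 2 were found for *Vat1l*, at 1355 counts in the mutant library and 644 in the control library (ratio 2.17, interval 1.97 to 2.38), and for *Cab39l*, a scaffold protein of the kinase LKB1, at 1032 and 610 (ratio 1.74, interval 1.57 to 1.93).

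Because *Otx2* and *Msx1* are themselves members, the promoters of the 40 genes were searched for the 6 letters that each factor's family binds. The letters were TAATCC for the OTX family and CAATTA for the MSX family, searched on both strands, where they read GGATTA and TAATTG, and no stretch printed holds both. RefSeq promoter windows of GRCm38.p6, from 250 bases before to 50 bases after a gene's start, were held for 32 of the 40 genes. The OTX letters were in the windows of *Ace*, *Mfrp*, *Otx2* and *Vat1l*, which is 4 of 40 windows (10%), against 7.06% of all 32851 windows. The MSX letters were in windows of *Cab39l*, *Kcnj13*, *Otx2* and *Tmem72*, 5 of 40 windows (12.5%), against 8.0% of all windows. A match of these letters is a description of the sequence and not a site of binding. Stretches upstream of the start are printed for *Mfrp*, *Kcnj13*, *Tmem72* and *Otx2*, 3 genes with ratios above 15 and 1 of the factors. Not printed are further *Otx2* matches, MSX letters at -204 from another start and OTX letters in an annotated exon. The printed stretches read as follows on the strand of the gene, with the match in capitals.
Mfrp, OTX letters, chr9:44101596-44101681, plus strand: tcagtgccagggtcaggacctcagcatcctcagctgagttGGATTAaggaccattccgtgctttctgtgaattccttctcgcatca
Kcnj13, MSX letters, chr1:87394782-87394867, minus strand: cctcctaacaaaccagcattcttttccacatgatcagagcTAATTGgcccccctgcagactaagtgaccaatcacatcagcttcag
Tmem72, MSX letters, chr6:116716914-116716988, minus strand: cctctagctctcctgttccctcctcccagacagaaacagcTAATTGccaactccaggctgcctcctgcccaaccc
Otx2, MSX letters, chr14:48667732-48667817, minus strand: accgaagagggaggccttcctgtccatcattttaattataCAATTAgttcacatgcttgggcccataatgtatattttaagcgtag
Counted from the RefSeq start of the window, the match begins at -134 in *Mfrp*, -98 in *Kcnj13*, -190 in *Tmem72* and -133 in *Otx2*. In *Mfrp* and *Tmem72* that start lies inside the gene's deposited span, so the match is nearer to the edge of the span. The *Otx2* stretch lies before an internal start, within the span of the gene, and holds letters of the family of *Msx1*, whose ratio was 1.78.

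**Figure D2:**
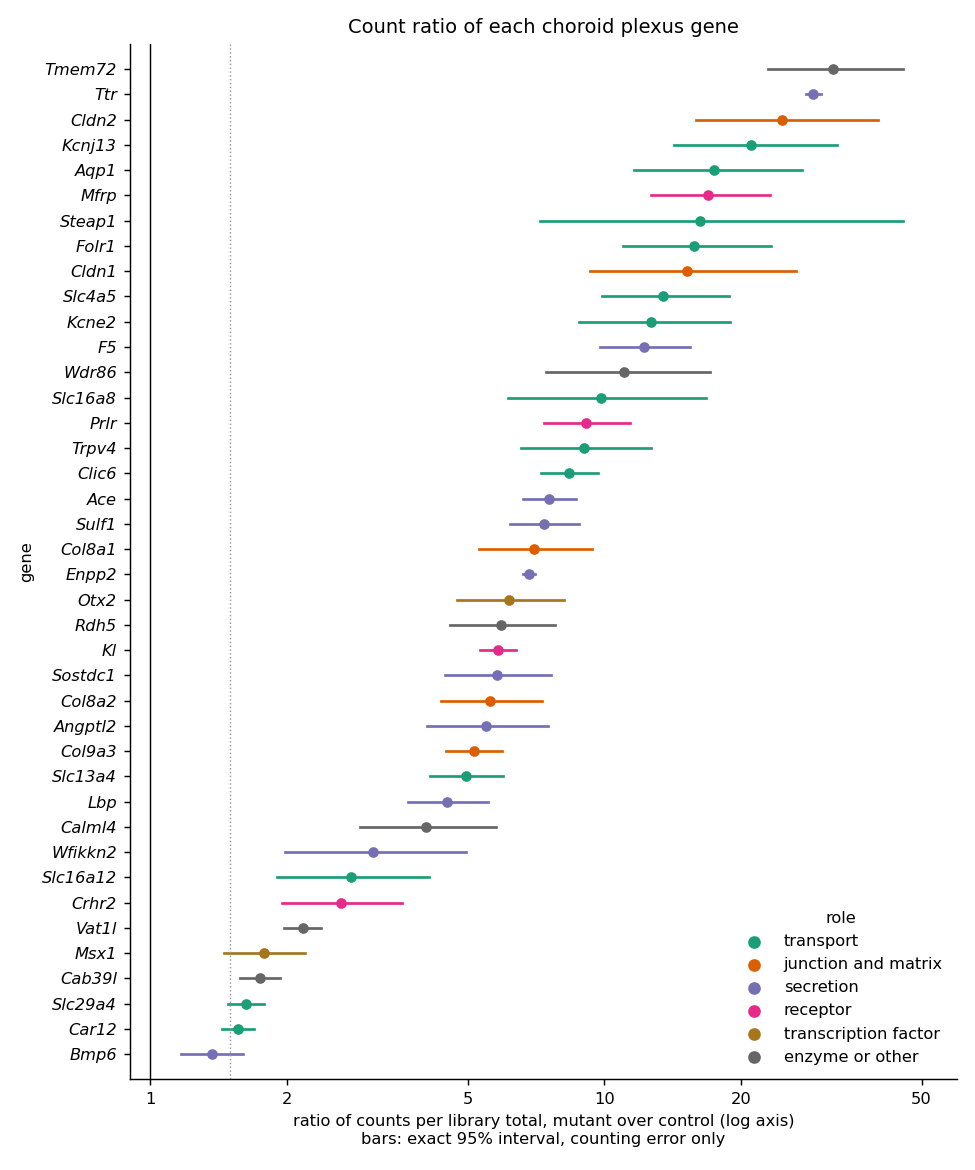
Ratio of counts per library total, mutant over control, for each of the 40 genes in order, on a log axis, coloured by role. Bars are exact 95% intervals for counting error only, the solid line marks 1 and the dotted line 1.5, and the ratios run from 1.37 to 31.9 without falling into groups by role.

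The ratios were spread over more than the counting error. Of the 40 genes, 13 had a count ratio of at least 10, 15 lay between 5 and 10, 7 between 2 and 5, and 5 under 2. The interval of *Ttr*, 27.8 to 30.0, lay wholly above those of 35 of the other 39 genes and overlapped those of 4, which were *Tmem72*, *Cldn2*, *Kcnj13* and *Steap1*. By role, the median log2 ratio was 1.95 for 10 secreted proteins, 1.94 for 13 transport genes, 1.9 for 4 receptors, 1.66 for 5 junction and matrix genes, 1.39 for 6 enzymes and others and 1.18 for the transcription factors. Every role except junction and matrix, whose lowest ratio was 5.15, held genes on both sides of a count ratio of 5.
The size of the ratio went with the level in the control library. For the 23 genes with an FPKM under 1 in the control library, the median count ratio was 9.86 (range 2.63 to 31.9), and for the 17 genes at 1 or more it was 5.15 (range 1.37 to 28.9). Across the 40 genes, Spearman's rho between control FPKM and count ratio was -0.50. The genes share both libraries, and the control level is part of the ratio. They were also chosen with their ratios known, and the 23 passed the FPKM minimum through the mutant library alone. Nothing is therefore read from this relation. The 5 genes under 2, *Bmp6*, *Car12*, *Slc29a4*, *Cab39l* and *Msx1*, had FPKM between 2.54 and 13.8 in the control library, whereas *Ttr* combined the second-highest ratio with the highest control level. The order of the levels was similar in both libraries, with a Spearman's rho of 0.731 between mutant FPKM and control FPKM over the 40 genes.

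The deposited annotation places many of these genes at membranes or outside the cell. Of the 40, 18 (45%) are annotated directly to integral component of membrane, against 16.2% of the 14769 genes above the FPKM minimum, and 12 (30%) to extracellular space or extracellular region, against 4.63%. The genes were chosen as genes of an epithelium that transports and secretes, so nothing is read from these contrasts. Only *Cldn2* and *Cldn1* are annotated to the bicellular tight junction. The genes lie on 18 chromosomes, with 6 on chromosome 5 and 5 on chromosome 6. In GRCm38, *Ttr* lies on chromosome 18 from 20665280 to 20674321, *Enpp2* on chromosome 15 from 54838901 to 54952892, *Otx2* on chromosome 14 from 48657677 to 48673819 and *Cldn2* on chromosome X from 139800828 to 139811386. Members lay close to each other at 2 places, and the expressed genes between them were within 1.5-fold. *Kcne2* and *Clic6* are 188 kb apart on chromosome 16, and of the 3 genes between them with an FPKM of at least 1, *Rcan1* had 867 counts in the mutant library and 955 in the control library. *Crhr2* and *Aqp1* are 203 kb apart on chromosome 6, and *Mindy4* between them had 160 counts in the mutant library and 171 in the control library.
Exons of 11 of the 40 genes overlap exons of another annotated gene, and no source used here states whether the counting used strand, so counts over shared bases are uncertain. The overlap exceeds 10% of the exonic bases for 3 genes. For *Kcnj13* it is 49.1% with *Gigyf2* on the opposite strand, which had 1807 counts in the mutant library and 1794 in the control library. *Mfrp* shares 36.7% with *C1qtnf5*, which was listed at 0 counts in both libraries. *Rdh5* shares 25.6% with *Bloc1s1*, at 321 counts in the mutant library and 250 in the control library. *Gigyf2* and *Bloc1s1* were within 1.5-fold.

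**Figure D3:**
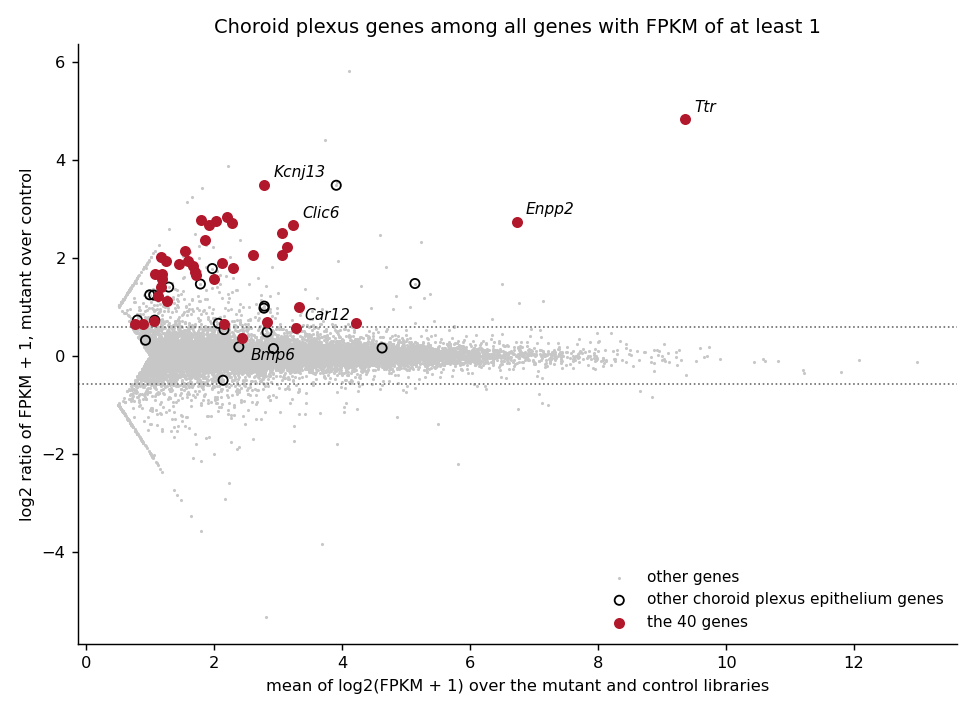
Log2 ratio of FPKM + 1, mutant over control, against the mean of log2(FPKM + 1) over both libraries, for all 14769 genes that reached an FPKM of 1 in either library. Red points are the 40 genes, open circles the other choroid plexus epithelium genes, and dotted lines mark 1.5-fold. *Ttr* and *Enpp2* stand apart at high level, with log2 ratios of 4.84 and 2.74.

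Other genes known from this epithelium, outside the 40, were higher less uniformly. Of 19 with an FPKM of at least 1, 12 were past 1.5-fold higher and none lower, against 3.65% and 3.17% of all genes. Their median log2 ratio was 0.73. The 40 were chosen with their ratios known, and this list with earlier results known. Nothing is therefore read from the contrast with the 40 or with all genes. *1500015O10Rik*, the gene of the secreted peptide augurin, had 838 counts in the mutant library and 61 in the control library (ratio 14.1). The epithelial keratins *Krt8* and *Krt18* had 110 and 170 counts in the mutant library, against 19 and 31 in the control library. *Prr32* had 99 counts in the mutant library and 23 in the control library. *Igfbp2*, a binding protein of insulin-like growth factors, had 2013 counts in the mutant library and 721 in the control library. *Slc15a2*, a peptide transporter that astrocytes also express, went the other way, with 376 and 606 counts, mutant and control (ratio 0.639), which on the log2(FPKM + 1) scale is within 1.5-fold.
Partners in fluid secretion, many of them used by neurons and glia too, were mostly within 1.5-fold. Over all genes, 3.65% were past 1.5-fold higher and 3.17% lower, the shares to set beside these partners and the lists that follow. Of 15 partners measured, 3 were past 1.5-fold higher and none lower. These were the anion exchanger *Slc4a2*, with 1387 counts in the mutant library and 562 in the control library, the carbonic anhydrase *Car14*, with 299 and 139, and the potassium chloride cotransporter *Slc12a4*, with 750 and 459. *Slc12a2*, the sodium potassium chloride cotransporter of the apical membrane, had 1961 counts in the mutant library and 1460 in the control library (ratio 1.38). Among 15 genes of retinoid and thyroid hormone handling, 2 were past 1.5-fold higher, among them the thyroid hormone transporter *Slco1c1* (ratio 1.62), and the other 13 were within it. Of 14 partners in the BMP pathway, 1 was past 1.5-fold higher, the ligand *Bmp4*, with 57 counts in the mutant library and 19 in the control library, and the targets *Id1* and *Id3* had ratios of 1.22 and 0.778. Of 9 measured ligands and partners of the receptors and enzymes, *Agt*, the angiotensinogen gene, was past 1.5-fold higher (ratio 1.57), and *Prl* and *Gh* were past 1.5-fold lower. *Gh*, the growth hormone gene, had 0 counts in the mutant library and 70 in the control library. They were also the 2 of 6 pituitary genes that passed the FPKM minimum, and the part of pituitary RNA in the control library was not tested.

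Markers of neighbouring cell types were read in the same libraries. Of 14 ependymal genes with an FPKM of at least 1, 3 were past 1.5-fold higher and 1 lower, and the summed FPKM of all 16 was 43.2 in the mutant library and 33.3 in the control library. The higher ones were *Mia*, *Pifo* and *Tekt1* and the lower one *Tmem212*. *Foxj1*, the master regulator of motile cilia, had 395 counts in the mutant library and 266 in the control library. The defining genes *Ccdc153* and *Rarres2* had ratios of 1.13 and 0.935. Of all 16 ependymal genes, 9 had a ratio above 1 and 7 below, with 5 intervals wholly above 1 and 1 wholly below. Leptomeningeal fibroblast genes summed to 38.2 in the mutant library and 31.4 in the control library over 13 genes. Of 12 measured, *Igf2* was past 1.5-fold higher, with 324 and 93 counts, mutant and control. The defining gene *Dcn* had 781 and 852 (ratio 0.943), and *Lum*, *Col1a1* and *Slc6a13* had ratios of 1.26, 0.935 and 1.45. Of all 13, 10 had a ratio above 1 and 3 below, with 7 intervals wholly above 1 and 1 wholly below. None of 12 endothelial, 9 pericyte and smooth muscle, 6 microglial, 6 oligodendrocyte or 7 astrocyte genes was past 1.5-fold in either direction on the log2(FPKM + 1) scale. By the ratio of counts per total, 3 of them were, the endothelial *Erg* with 38 counts in the mutant library and 85 in the control library (ratio 0.460), and the smooth muscle genes *Tagln* (ratio 1.71) and *Myh11* (ratio 1.64). The oligodendrocyte genes, *Mbp* among them, had a median log2 ratio of 0.02. The part of oligodendrocytes in the *Enpp2* counts was not tested. Border macrophage genes were below the FPKM minimum in both libraries. The retinal pigment epithelium shares *Ttr*, *Otx2*, *Rdh5*, *Mfrp* and *Slc16a8* with the choroid plexus. Among its listed genes, no interval lay wholly above or wholly below 1. *Rpe65* had 9 and 7 counts, mutant and control, *Tyr* 0 in both, and *Best1* 39 and 35. *Rlbp1*, the only 1 of the 7 to pass the FPKM minimum, had 320 counts in the mutant library and 375 in the control library (ratio 0.878). Of 5 thalamus and habenula genes measured, *Tac2* and *Slc17a6* were past 1.5-fold higher. They had 111 and 527 counts in the mutant library and 56 and 316 in the control library. All 9 genes listed, with those under the FPKM minimum, had a ratio above 1, and 6 intervals lay wholly above 1. Hippocampal neurons were plain in both libraries, with *Slc17a7* at an FPKM of 258 in the mutant library and 287 in the control library. Of 10 of their genes, 1, *Wfs1*, was past 1.5-fold higher. The other 9 had count ratios below 1, 8 of them with intervals wholly below 1. The summed FPKM of the 10 was 1906 in the mutant library and 2192 in the control library. Whether tissue from outside the hippocampus had a part in the values of the 40 genes was not tested.

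**Figure D4:**
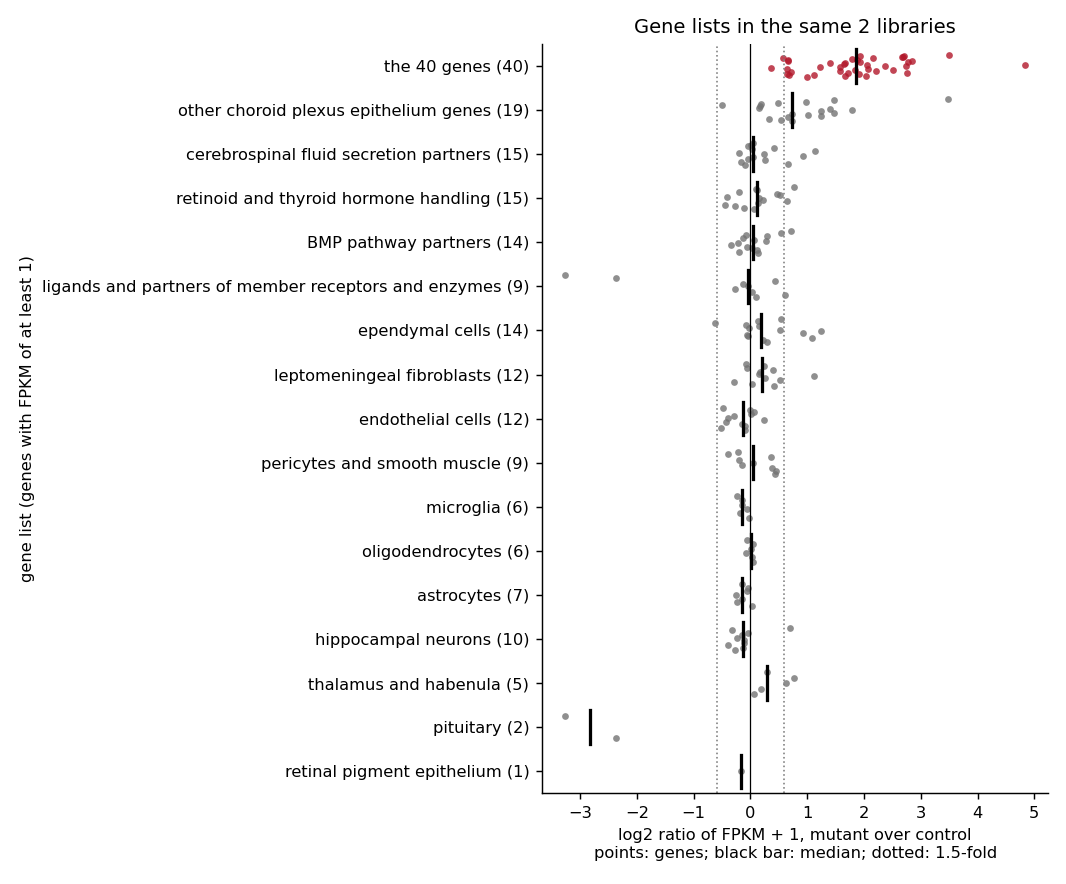
Log2 ratio of FPKM + 1, mutant over control, of the 40 genes (red) and of each other gene list (grey), with 1 point per gene, the median as a black bar and the number of genes in brackets. The 40 genes, chosen with their ratios known, have a median of 1.86 and the other choroid plexus epithelium genes of 0.73. The lists of glia and vessel cells lie within the dotted lines at 1.5-fold.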

How the data were processed

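RNA-seq of hippocampal tissue (the labels name both poly(A) isolation and rRNA removal) was analysed for 1 *Cdh5-CreERT2;CDK5f/f* library with 18900847 counts and 1 *CDK5f/f* library with 19451827 counts. The code in a column's name, which each sample title repeats, tied columns to libraries. Tools in the submitters' processing notes, with no role given, are HISAT2 2.0.1, HTSeq 0.6.1, cutadapt 1.9.1 and DESeq2, and the build is mm9. The gene coordinates belong to GRCm38: of 55394 identifiers shared with GENCODE M21, 55218 have the same start and end, as do all 40 members. The authors deposited raw counts per gene, exonic lengths and FPKM values, which equal the count scaled by exonic length and library total within 0.005 in all 55573 rows of both libraries. Strand and multi-mapping settings are not given in the sources used here.

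The deposited FPKM were used as log2(FPKM + 1), for genes that reached an FPKM of 1 in either library, 1 row per symbol. Past 1.5-fold is the descriptive threshold. Ratios of counts per library total carry exact conditional 95% (Clopper-Pearson) intervals, and single shares Wilson intervals, all for counting error only. The members and lists were chosen with earlier results of these data known. All 40 members are named, and from the other lists those past 1.5-fold (up to 4 with the largest ratios) and defining markers. Other genes, such as *Krt8*, *Slc15a2*, *Id1* and the genes next to members, were named after their values were seen. Some list genes that this rule would name are not reported here. One listed symbol, *Tmem27*, matched no row. Promoter windows came from the RefSeq table of GRCm38.p6. A planned comparison of protein sequences was not run. Calculations were tested on simulated data. Intervals came from scipy 1.17.1 with pandas 2.3.3 and numpy 2.4.6 under Python 3.11.15, and plots from matplotlib 3.10.9. In R 4.3.3, edgeR 4.0.16 and DESeq2 1.42.0 served only for scaling alternatives.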

Additional observations from a re-analysis of the deposited data

How the results depend on the processing

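All 40 members stayed above 1 and none was past 1.5-fold lower under any of the 8 alternatives that measured them. The count past 1.5-fold higher was 38 with no FPKM minimum and with TMM, median-of-ratios or member-free scaling, 39 with a pseudocount of 0.1 and with the ratio of counts per total (*Bmp6* being within), and 27 with a pseudocount of 5. With a minimum FPKM of 5, only 24 members were measured, and 22 were past it. The median log2 ratio, 1.86 as reported, was 2.62 with a pseudocount of 0.1, 0.78 with 5, 2.19 with the minimum of 5 and 2.79 as a ratio of counts per total. A pseudocount shrinks weak genes by construction, and most members were weak in the control library. Among all genes, 539 were past 1.5-fold higher as reported, 928 with a pseudocount of 0.1, 132 with 5, 167 with the minimum of 5 and 959 as a ratio of counts per total. The lower genes numbered 468 as reported, and 808, 86, 126 and 783 under the same settings in that order. A count of the other lists was said to move if it changed by over 1.5 times, or to or from 0, even by 1 gene. Of the 34 counts, 8, 9 and 8 moved with pseudocounts of 0.1 and 5 and the minimum of 5, and none with the other settings run on them. No paired analysis was possible because each genotype has 1 library, so the spread between mice is unknown and no library could be left out.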

Other observations

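Genes outside the lists that had ratios as high as the members were looked up after their values had been seen. Of 12866 genes past the FPKM minimum and with 100 counts or more over both libraries, 63 had a count ratio of at least 4. Of these 63, 31 were members and 5 other choroid plexus epithelium genes. Both sets were chosen with results of these libraries known, so nothing is read from their share of the 63. The remaining 27 included *Ddx3y*, *Eif2s3y*, *Kdm5d* and *Uty* on the Y chromosome, several pseudogenes, and *Rps2* and *Atp6v0c*, which have near-identical copies elsewhere in the genome. *Rps2* and *Atp6v0c* lie on chromosome 17, as do *Rps18*, *Tmem181b-ps* and the histocompatibility genes *H2-T23* and *H2-T22*. *H2-T23* had 102 counts in the mutant library and 1 in the control library, and *H2-T22* had 187 and 26. Why these genes differed was not tested. The 27 also included *Lcn2*, which encodes the iron-binding secreted protein lipocalin 2, with 333 counts in the mutant library and 19 in the control library (ratio 18.04, interval 11.4 to 30.3). *Slc2a12*, a glucose transporter gene, had 602 and 68 counts, mutant and control (ratio 9.11, interval 7.08 to 11.9). *Spp1*, the osteopontin gene, had 149 counts in the mutant library and 13 in the control library, and *Igha*, the constant region of immunoglobulin A, which plasma cells make, had 158 and 18. *Drc7*, a gene of the motile cilium, had 482 counts in the mutant library and 78 in the control library.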
